A study of Rattus norvegicus with 12 samples.

Results

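Store-operated calcium entry refills the calcium store of the endoplasmic reticulum (ER), and calcium pumps load that store and clear calcium from the cytosol. The 10 genes described here were found by their symbol in a table of 21556 genes: the store sensors Stim1 and Stim2, the channel genes Orai1, Orai2 and Orai3, the inositol trisphosphate (IP3) receptor genes Itpr1, Itpr2 and Itpr3, and the pump genes Atp2a2 and Atp2b1. All 10 were present and all 10 were among the 11451 genes with a mean of at least 0.5 FPKM (fragments per unit of gene length, relative to all fragments mapped in a library), the genes that were tested. RNA was sequenced from ND7/23 cells, a line made by fusing the mouse neuroblastoma N18Tg2 with neurons of rat dorsal root ganglia, in 12 libraries. There were 3 libraries of control cells, 3 of cells given 100 μM menthol, which opens the calcium-permeable cold channel TRPM8, 3 of cells given Wnt3a at 100 ng/ml, which activates β-catenin signalling, and 3 of cells given menthol and Wnt3a together, with 6 h of stimulation. The comparisons ask which calcium genes these cells use at baseline and whether menthol, Wnt3a or their combination changed their RNA.

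When a receptor coupled to phospholipase C is activated, IP3 opens IP3 receptors in the ER membrane and calcium leaves the store. STIM proteins sense the fall of calcium inside the ER, cluster where the ER meets the plasma membrane and open ORAI channels, through which calcium enters. SERCA pumps (Atp2a genes) return it to the ER, and PMCA pumps (Atp2b genes) export it from the cell. In sensory neurons, this machinery works beside voltage-gated and TRP channels.

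The libraries held 36914722 to 38837023 reads on genes, as recovered from the steps of the FPKM values. The labels did not say that the libraries of a group came from separate cultures, so each p-value measures the spread between these libraries, which may be technical. How reads of mouse transcripts were assigned to rat genes was not stated. Of 14 sensory neuron markers, 2 passed the level filter, Uchl1 with a mean of 101 FPKM and Isl1 with 13.2 FPKM. Defining neuronal genes were at or near 0: Tubb3 had 0 to 6 reads per library, Prph 0 to 8 and Pou4f1 0 to 4. The fibroblast marker Col1a2 had a mean of 115 FPKM, and the 7 fibroblast markers summed to 139 to 148 FPKM in control, 127 to 131 with menthol, 131 to 138 with Wnt3a and 127 to 129 with both. The 12 skeletal muscle markers summed to 7.35 to 9.68 FPKM over all libraries. In bulk RNA, fewer cells of a type and less RNA per cell cannot be told apart.

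Promoters are shown for Atp2a2, Orai1 and Itpr1, because their differences in the pooled comparisons had the smallest p-values or groups that did not overlap. The sequences are the 250 bases before the transcript start in RefSeq, rat build GRCr8, 5′ to 3′ on the strand of the gene, at chr12:39733269-39733518 (plus strand) for Atp2a2, chr12:39209031-39209280 (minus strand) for Orai1 and chr4:142743190-142743439 (plus strand) for Itpr1. Capitals mark matches to 5 short motifs, each searched on both strands: the CCAAT box, which is spelled by its name, the GC box with the letters GGGCGG, the cAMP response element with the letters TGACGTCA, the core of a TCF/LEF site with the letters CTTTGA and the common promoter box spelled TATAAA.
Atp2a2: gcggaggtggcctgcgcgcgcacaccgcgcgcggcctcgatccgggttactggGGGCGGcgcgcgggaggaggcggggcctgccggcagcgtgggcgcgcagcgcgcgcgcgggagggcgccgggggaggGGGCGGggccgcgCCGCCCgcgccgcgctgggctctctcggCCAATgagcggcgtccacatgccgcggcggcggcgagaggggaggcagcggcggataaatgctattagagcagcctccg
Orai1: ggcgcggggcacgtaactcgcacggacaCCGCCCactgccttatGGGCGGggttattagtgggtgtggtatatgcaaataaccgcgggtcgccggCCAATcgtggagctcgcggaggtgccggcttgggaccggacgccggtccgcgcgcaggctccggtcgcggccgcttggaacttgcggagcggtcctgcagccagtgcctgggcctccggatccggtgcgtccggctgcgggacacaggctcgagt
Itpr1: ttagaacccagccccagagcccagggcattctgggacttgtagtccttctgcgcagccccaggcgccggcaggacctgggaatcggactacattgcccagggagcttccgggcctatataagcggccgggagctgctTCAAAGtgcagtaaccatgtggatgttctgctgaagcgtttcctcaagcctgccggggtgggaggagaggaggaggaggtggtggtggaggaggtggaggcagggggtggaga

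Upstream sequence was matched for 9 of the 10 members. Their median GC content was 72.4%, beside 60% for 10534 tested genes and 51.2% for all 33469 promoters. The upstream sequence of Atp2a2 had 80% GC, 3 GC boxes and 1 CCAAT box, and that of Orai1 had 69.6% GC, 2 GC boxes and 1 CCAAT box. Itpr1 differed from them, with 62% GC, no GC box and 1 TCF/LEF core. A GC box was present for 7 of the 9 members (57.8% of tested genes), a CCAAT box for 5 of 9 (36%), a TCF/LEF core for 1 of 9 (10.5%), and neither the TATAAA box (6.22%) nor the cAMP response element (2.9%) for any. These are matches of letters in a window and not binding sites.

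At baseline nearly all SERCA RNA came from 1 gene. Atp2a2, the SERCA pump found in nearly all cell types, had 150, 148 and 146 FPKM in the 3 control libraries (148 ± 2.12, SD, n = 3). Its level was above that of 95.8% of the tested genes. The muscle pump gene Atp2a1 had 0 to 5 reads per library, and Atp2a3, a SERCA gene best known from blood cells, had 1 to 5, against 26313 to 30581 for Atp2a2. Some small membrane proteins that restrain SERCA were also near 0, with 2 to 40 reads for phospholamban (Pln), 0 to 2 for sarcolipin (Sln) and 0 to 1 for myoregulin (Mrln). Not all listed regulators were low, as Tmx1 had a mean of 152 FPKM. Of the 9 listed pump subunits and regulators 7 had values, and the levels of Erln and Strit1 are not known here.

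PMCA RNA likewise came mostly from 1 gene. Atp2b1, the widely expressed plasma membrane pump, had 16.4, 16.7 and 15.7 FPKM in control libraries and made up 98.5% ± 0.18 (SD, n = 3) of the PMCA signal per length. Atp2b4 made up 1.31% ± 0.121, with 44 to 90 reads per library. The neuronal PMCA genes Atp2b2 and Atp2b3 had 2 to 14 and 0 to 11 reads. Basigin (Bsg) and neuroplastin (Nptn), the membrane partners that PMCA pumps need, stood at means of 651 and 124 FPKM. In the Golgi apparatus, Atp2c1, the SPCA pump gene, had a mean of 12.3 FPKM and Atp2c2 0.0887 FPKM. Of the sodium-calcium exchangers of the plasma membrane, Slc24a3 had 221 to 410 reads per library (mean 1.83 FPKM), Slc8a2 33 to 75, Slc8a3 6 to 37, and Slc8a1 and Slc24a4 0 to 6 each. The mitochondrial exchanger Slc8b1 had a mean of 28.2 FPKM.

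Among the release channels, Itpr3 was the leading IP3 receptor gene. It had 27.9, 29.3 and 29.4 FPKM in control libraries, which was 89.2% ± 0.55 (SD, n = 3) of the IP3 receptor signal per length. Itpr1, the main IP3 receptor of many neurons, had 2.99, 2.90 and 2.78 FPKM and a share of 8.95% ± 0.51. Itpr2 had 0.602, 0.55 and 0.622 FPKM and a share of 1.83% ± 0.128. The ryanodine receptor genes, the other family of release channels, were near 0, with 2 to 21 reads for Ryr1, 0 to 7 for Ryr2 and 1 to 10 for Ryr3. IP3 itself is made by phospholipase C, for which Plcg1, Plcb3 and Plcd1 had the highest means of the listed genes, at 22.8, 16.9 and 16.4 FPKM.

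Both sensors were present. Stim1, the main sensor of store depletion, had 14.9, 13.9 and 14.3 FPKM in control libraries, and Stim2, which responds to smaller falls of ER calcium, had 8, 8.39 and 8.05 FPKM. Per length, Stim1 made up 63.8% ± 1.32 (SD, n = 3) of the pair. The order of this pair depended on the length scaling: by reads not divided by length, Stim1 made up 47.6% and Stim2 52.4%, since the lengths behind the FPKM values were 3837 and 7464 bases. Saraf, a brake on STIM, had a mean of 20.8 FPKM.

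Of the channel genes, Orai1, the pore of the classical store-operated current, had 39.0, 39.5 and 39.1 FPKM in control libraries and made up 72.1% ± 1.12 (SD, n = 3) of the ORAI signal per length. Orai3 had 13.9, 12.9 and 12.8 FPKM and a share of 24.3% ± 0.892. Orai2 had 2.16, 1.86 and 1.94 FPKM and a share of 3.66% ± 0.246. The level of Orai1 was 2.62 to 3.03 times that of Stim1 over the 12 libraries.

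**Figure D1:**
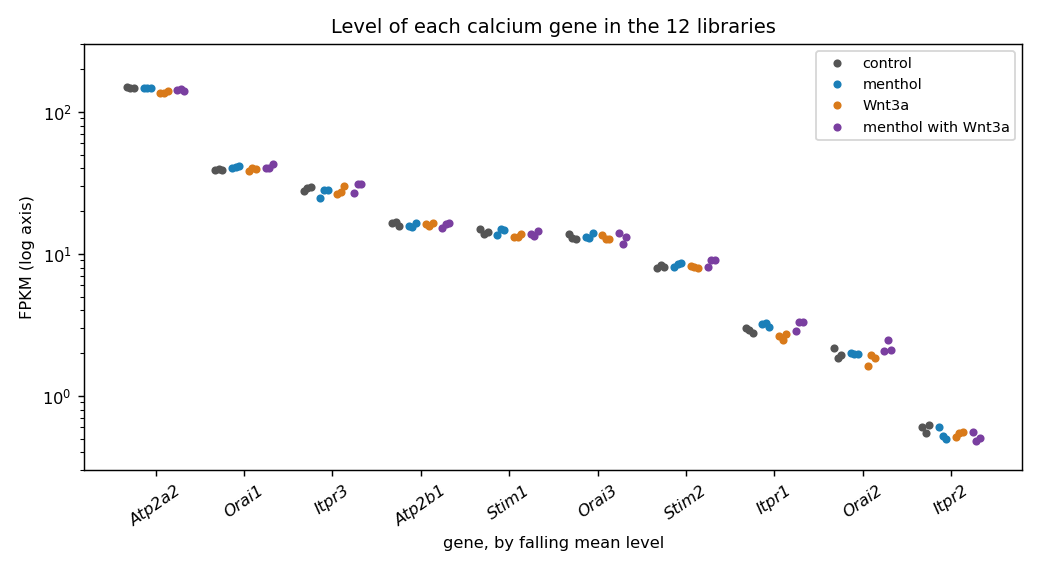
FPKM on a log axis of the 10 genes, 1 point per library (12 libraries, 3 per group, coloured by group). Atp2a2 lies between 136 and 150 FPKM and Itpr2 between 0.482 and 0.622. The distance from the highest to the lowest gene is far larger than those between groups, while neighbours such as Stim1 and Orai3 overlap.

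Over all 12 libraries, the order of levels per length was Atp2a2, Orai1, Itpr3, Atp2b1, Stim1, Orai3, Stim2, Itpr1, Orai2 and Itpr2. Stim1 and Orai3 were the only neighbours whose ranges over the 12 libraries overlapped (13.1 to 15 and 11.8 to 14.1 FPKM), and Stim1 was the higher of the pair in 10 of 12 libraries. Itpr1 and Orai2 came next to touching, with a lowest value of 2.48 for Itpr1 and a highest of 2.47 for Orai2. The mean of Atp2a2 was 3.57 times that of Orai1.

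Paralogue shares moved by a few percentage points between libraries. Over the 12 libraries the share of Stim1 ranged from 59.7 to 65.1%, that of Orai1 from 70.8 to 73.8% and that of Itpr3 from 86.8 to 90.2%. The leading gene of each family was the same in all 12 libraries. The share of Itpr1 was 9.49, 8.86 and 8.48% in control, 11.1, 10.2 and 9.64% with menthol, 8.97, 8.16 and 8.14% with Wnt3a and 9.47, 9.44 and 9.52% with both. The menthol libraries therefore lay above the control libraries and the libraries with both lay above those with Wnt3a alone, while the libraries with both overlapped control.

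**Figure D2:**
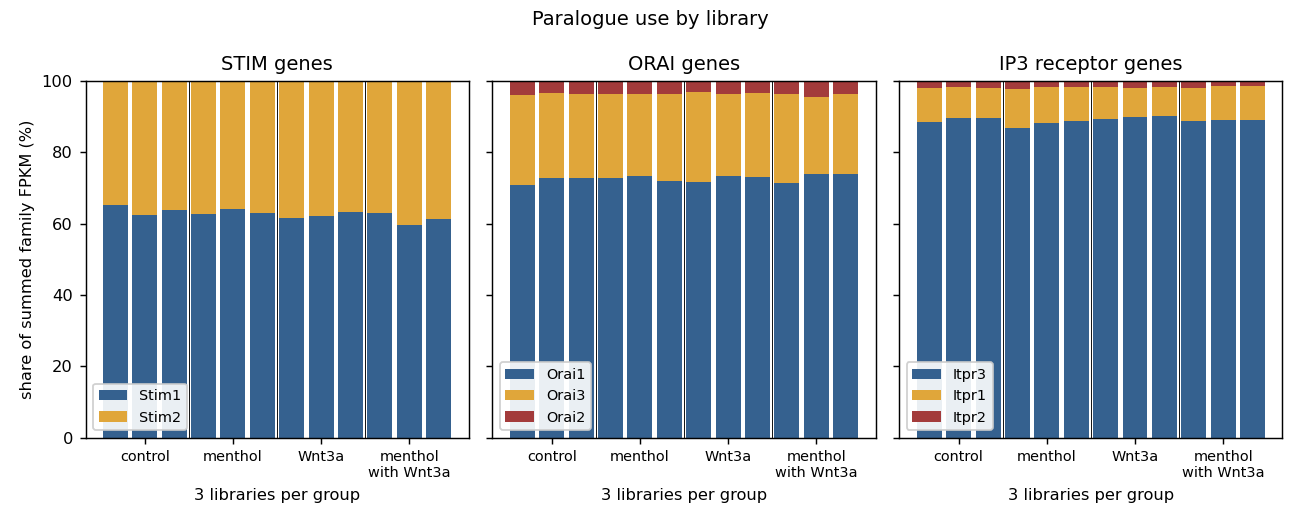
Share of each paralogue in the summed FPKM of its family (%), 1 stacked bar per library in 4 groups of 3. Stim1, Orai1 and Itpr3 take the largest part of their families in every bar.

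The spread between libraries of a group differed among the members. The pooled coefficient of variation of Orai1 was 2.13%, beside 2% from read counting alone, whereas that of Itpr3 was 6.58%, which was 6.45 times its counting error of 1.02%. Itpr3 had 24.9, 28.2 and 28.3 FPKM with menthol, 26.2, 27.4 and 30 with Wnt3a and 26.9, 31.1 and 30.9 with both. Its 4 groups overlapped, and the library numbered 1 was the lowest of each group. Atp2a2 had the smallest spread, 1.19%, and Orai2 the largest, 7.81%.

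Menthol alone was compared with control to ask what menthol changed. No sequenced group had TRPM8 blocked, so the part of TRPM8 was not tested. None of the 10 genes passed an adjusted p under 0.05 in limma (0.105% of tested genes did), none had an unadjusted p under 0.05 (9.34% did), and limma voom on the recovered reads also passed 0. Orai1 had 40.5, 40.7 and 41.5 FPKM with menthol, all above control, and Itpr1 had 3.19, 3.25 and 3.07, also all above control. These 2 of 10 genes had groups that did not overlap, beside 15.9% of the tested genes. The log2 fold change was 0.06 for Orai1 (95% confidence interval -0.01 to 0.13) and 0.13 for Itpr1 (-0.03 to 0.29). The intervals of all 10 genes lay between 0.74-fold and 1.23-fold, with the low end set by Itpr2.

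Wnt3a alone was compared with control. None of the 10 genes passed the adjusted p in limma (0.437% of tested genes did), and 2 had an unadjusted p under 0.05 (15.1% did), Atp2a2 and Stim1. Atp2a2 had 136, 136 and 139 FPKM with Wnt3a, all below its control libraries, with a log2 fold change of -0.11 and an SE of 0.024 (limma adjusted p = 0.0776). limma voom passed this difference (adjusted p = 0.0232), and it was the only member among the 2.65% of tested genes that voom passed. Over the alternatives the adjusted p ran from 0.0232 to 0.259.

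Stim1 had 13.1, 13.2 and 13.7 FPKM with Wnt3a, all below control (-0.10 on the log2 scale, SE 0.0472, limma adjusted p = 0.318). Itpr1 had 2.63, 2.48 and 2.71 FPKM with Wnt3a, also all below control (95% confidence interval -0.31 to 0.02 on the log2 scale). The groups of these 3 of 10 genes did not overlap, beside 20.2% of tested genes. The signs were negative for 9 of the 10 genes, with a median log2 fold change of -0.078, beside 0.004 over all tested genes. This tilt did not recur when Wnt3a was added to menthol, with 5 positive and 5 negative signs (median -0.003). In the pooled Wnt3a comparison 4 were positive and 6 negative (median -0.018). The summed fibroblast markers were also below control in the Wnt3a libraries. Most of this sum was Col1a2 (means of 123 FPKM in control and 115 with Wnt3a). The 5 tested fibroblast markers all had negative signs, while Dcn (0.122 and 0.27) and Lum (0.085 and 0.108), below the level filter, had higher means with Wnt3a. Of the 2 tested neuronal markers, Isl1 had 10.8 to 11.4 FPKM in control and 14.1 to 17.6 with Wnt3a. Uchl1 overlapped, with 94.2 to 102 and 98.6 to 103 FPKM. The part of these markers in the differences of the members was not tested.

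Menthol added to Wnt3a was compared with Wnt3a alone. No member passed the adjusted p in limma (0.0524% of tested genes did), and 3 had an unadjusted p under 0.05 (14.5% did). Itpr1 had 2.87, 3.29 and 3.30 FPKM with both stimuli, all above the Wnt3a libraries (log2 fold change 0.26, SE 0.0762, limma adjusted p = 0.162). limma voom passed Itpr1 alone among the members (adjusted p = 0.036), beside 1.25% of tested genes. Orai2 had 1.63, 1.93 and 1.86 FPKM with Wnt3a and 2.08, 2.47 and 2.09 with both (log2 fold change 0.28, SE 0.0989, limma adjusted p = 0.243). Atp2a2 had 142, 144 and 141 FPKM with both, again above the Wnt3a libraries (log2 fold change 0.05, SE 0.024, limma adjusted p = 0.334). With Orai1, these made 4 of 10 genes whose groups did not overlap, all higher with menthol added, beside 17.7% of tested genes. This comparison shares the Wnt3a libraries with the one before it.

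Wnt3a added to menthol was compared with menthol alone. For this comparison the study reported that menthol-induced calcium signalling could be inhibited by Wnt3a. That came from enrichment of a whole pathway among genes past 2-fold in its count model, so gene set and threshold differ from those used here. Again 0 of 10 passed the adjusted p in limma (0.0961% of tested genes did), none had an unadjusted p under 0.05 (6.72% did), and limma voom passed 0. The groups did not overlap for 2 of 10 genes (11.3% of tested genes). Orai2 had 2.01, 1.96 and 1.97 FPKM with menthol, below the 3 libraries with both, and Atp2a2 had 146, 147 and 147, above them. The intervals of the 10 genes lay between 0.767-fold and 1.28-fold.

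Both stimuli were also compared with control. The adjusted p of limma passed 0 of 10 (0.83% of tested genes did), 1 had an unadjusted p under 0.05 (13.5% did), and limma voom passed 0. That gene was Atp2a2, whose 3 libraries with both lay below control (-0.05 on the log2 scale, SE 0.024, limma adjusted p = 0.343). Orai1 had 40.3, 40.3 and 42.7 FPKM with both, above control. The groups did not overlap for these 2 of 10 genes, beside 20.5% of tested genes.

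**Figure D3:**
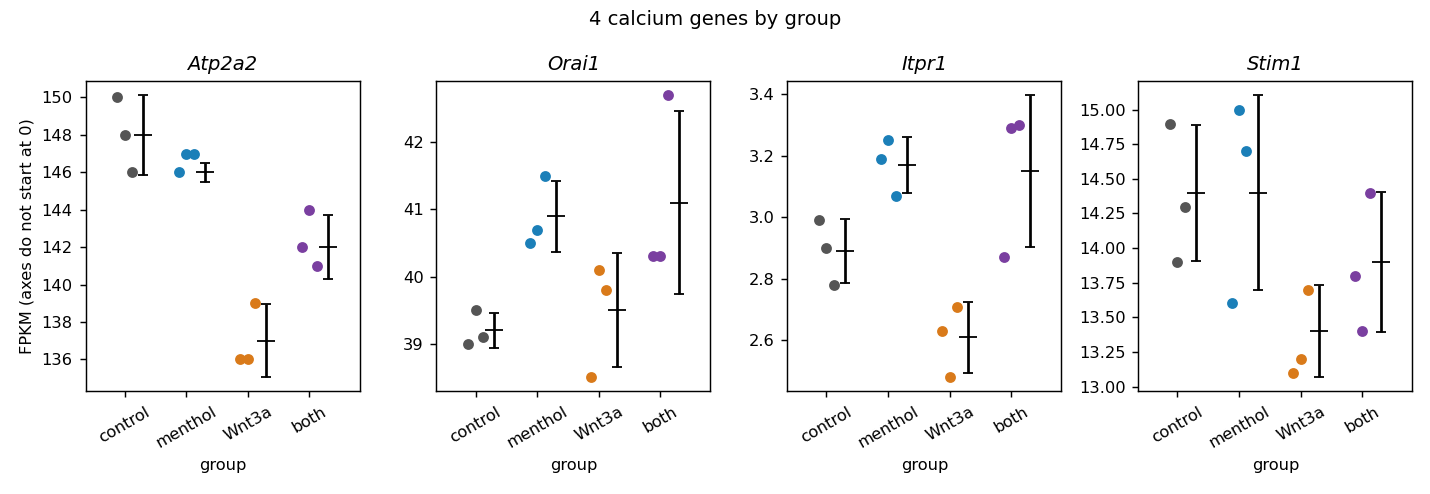
FPKM of Atp2a2, Orai1, Itpr1 and Stim1 in the 4 groups, 1 point per library, with the mean and SD of each group (n = 3) beside the points and axes that do not start at 0. The Wnt3a libraries of Atp2a2 lie between 136 and 139 FPKM, and those without Wnt3a at 146 or more.

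The interaction asks whether the response to menthol differed with Wnt3a. None of the members passed it on the adjusted p in limma (0% of tested genes did), none had an unadjusted p under 0.05 (6.99% did), and limma voom passed 0. The estimates were 0.28 for Orai2 (95% confidence interval -0.02 to 0.58 on the log2 scale), 0.18 for Itpr3 (-0.02 to 0.38) and 0.13 for Itpr1 (-0.10 to 0.36). The interval for Orai2 reached up to 1.49-fold, the widest upper end of the 10 genes.

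Pooling the Wnt3a states set the 6 libraries with menthol against the 6 without. No member passed the adjusted p in limma (1.15% of tested genes did), and 2 had an unadjusted p under 0.05 (15.5% did). Itpr1 had the largest difference, with a log2 fold change of 0.20 and an SE of 0.0539 (limma adjusted p = 0.0985, 0.0126 to 0.207 over the alternatives). It was passed by limma voom (adjusted p = 0.0126), as were 2.64% of tested genes. For Itpr1 the menthol libraries ranged from 2.87 to 3.30 FPKM and the others from 2.48 to 2.99, so the ranges overlapped. Orai1 was the only member whose ranges did not, with 40.3 to 42.7 FPKM with menthol and 38.5 to 40.1 without, beside 1.54% of tested genes. Its difference was small, with a log2 fold change of 0.06 and an SE of 0.0225 (limma adjusted p = 0.223). The summed fibroblast markers lay at 127 to 131 FPKM in the menthol libraries and at 131 to 148 in the others, and their part in these differences was not tested.

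Pooling the menthol states set the 6 libraries with Wnt3a against the 6 without. No member passed the adjusted p in limma (0.803% of tested genes did), and 2 had an unadjusted p under 0.05 (14.2% did). Atp2a2 was the only member whose ranges did not overlap, with 136 to 144 FPKM with Wnt3a and 146 to 150 without, beside 1.17% of tested genes. Its log2 fold change was -0.07 with an SE of 0.017 (limma adjusted p = 0.0596, 0.0235 to 0.155 over the alternatives). limma voom passed it (adjusted p = 0.0235), as it did 2.44% of tested genes. Stim1 ranged from 13.1 to 14.4 FPKM with Wnt3a and from 13.6 to 15 without (log2 fold change -0.08, SE 0.0334, limma adjusted p = 0.287). The other ER member with a high level, Itpr3, had a log2 fold change of 0.04 (95% confidence interval -0.06 to 0.14).

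One test over the 4 groups together passed none of the 10 genes in limma (0.978% of tested genes passed). Atp2a2 and Itpr1 had an unadjusted p under 0.05 (17.4% of tested genes did), with limma adjusted p = 0.0932 and 0.162. Both passed in limma voom (adjusted p = 0.0337 and 0.0205), beside 4.37% of tested genes. Atp2b1, the export pump, had 15.6, 15.5 and 16.5 FPKM with menthol, 16.1, 15.8 and 16.5 with Wnt3a and 15.2, 16.3 and 16.6 with both, and its groups overlapped in each comparison. Orai3 (11.8 to 14.1 FPKM over the 12 libraries), Stim2 (7.97 to 9.07) and Itpr2 (0.482 to 0.622) overlapped in each comparison too.

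**Figure D4:**
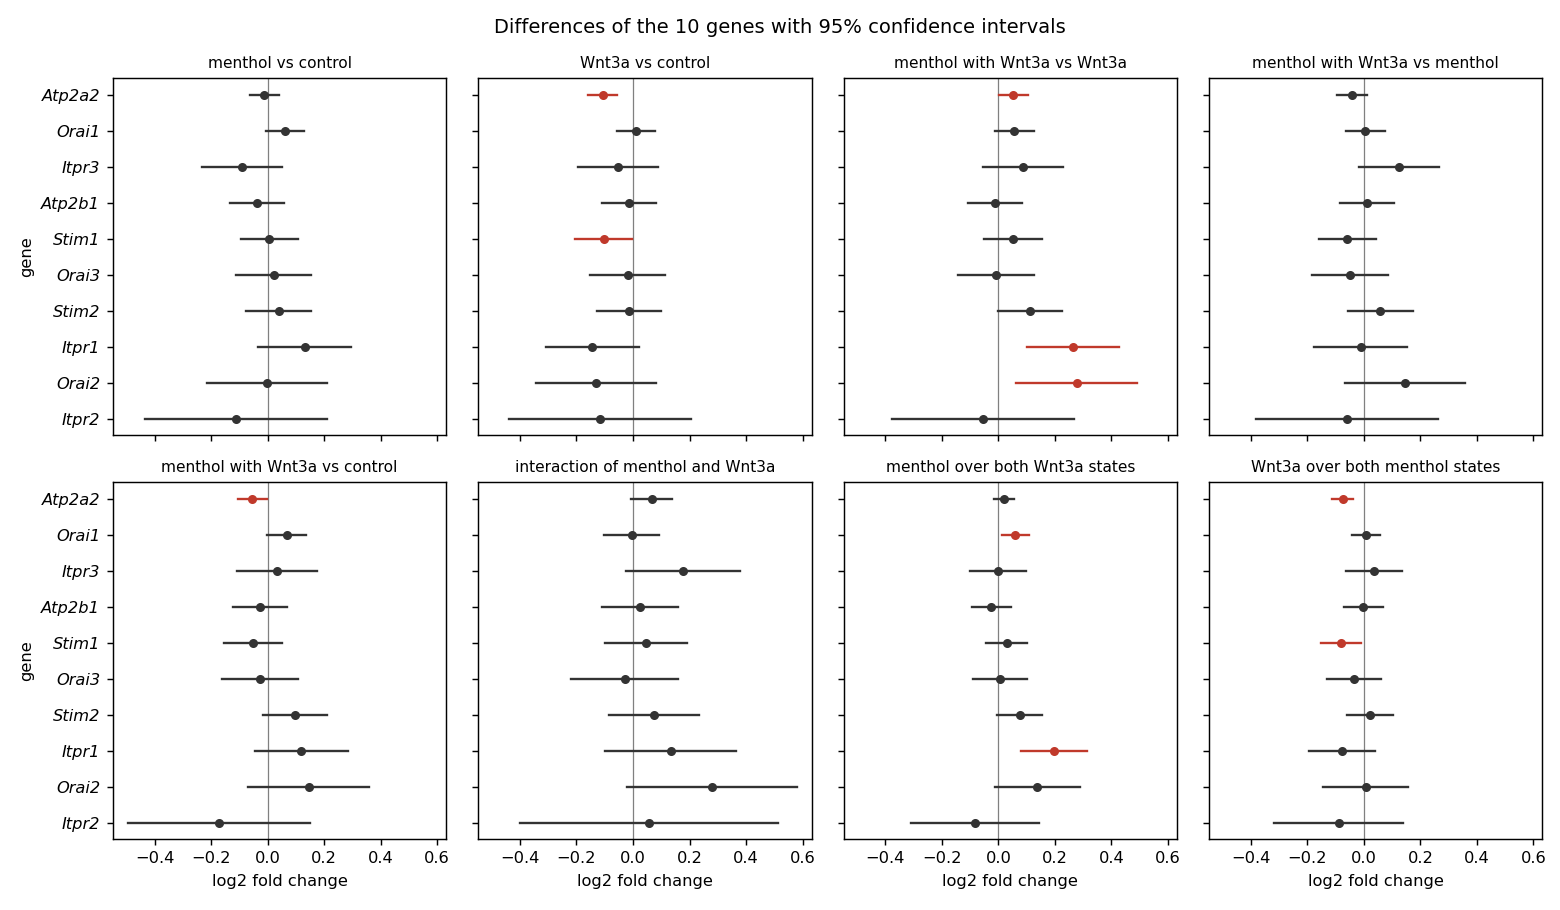
Log2 fold change of each of the 10 genes with its 95% confidence interval in 8 comparisons, from limma on log2(FPKM + 0.1), red where the unadjusted p was under 0.05. No gene passed an adjusted p under 0.05 in these panels, and the intervals are narrowest for Atp2a2 and widest for Itpr2.

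The other genes of calcium handling were described from 9 lists with 104 genes in the table, of which 75 were tested. In limma 0 of 75 passed the adjusted p in the 5 pairwise comparisons and in the 2 pooled ones. An unadjusted p under 0.05 was found for 2 of 75 with menthol alone (2.67% of the list, beside 9.34% of all tested genes), 13 with Wnt3a alone (17.3% beside 15.1%) and 10 with menthol added to Wnt3a (13.3% beside 14.5%). It was found for 3 with Wnt3a added to menthol (4% beside 6.72%) and 3 with both stimuli against control (4% beside 13.5%). In the pooled comparisons there were 6 for menthol (8% beside 15.5%) and 11 for Wnt3a (14.7% beside 14.2%). limma voom passed 2 of 75 for Wnt3a alone (2.65% of all tested genes), 1 in the pooled menthol comparison (2.64%), 1 in the pooled Wnt3a comparison (2.44%) and 0 in the other 4 comparisons.

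The 2 largest differences of the pooled menthol comparison were those of Itpripl2, related to a protein that binds IP3 receptors (log2 fold change 0.25, SE 0.0666, limma adjusted p = 0.0946), and of Slc24a3, a potassium-dependent sodium-calcium exchanger (-0.24, SE 0.11, limma adjusted p = 0.313). Itpripl2 was passed by limma voom (adjusted p = 0.0443). For the pooled Wnt3a comparison they were Slc24a3 (-0.22, SE 0.11, limma adjusted p = 0.386) and Nfatc4, a transcription factor that calcineurin activates (0.18, SE 0.0591, limma adjusted p = 0.181). Named after its values were seen, Letm1, a mitochondrial inner membrane protein of ion exchange, came nearest to the threshold, with 26 to 28 FPKM in control and 22 to 24.5 with Wnt3a (-0.22 on the log2 scale, SE 0.0453, limma adjusted p = 0.0507).

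The ER calcium-binding chaperones, which buffer calcium in the store, were among the most abundant of these genes, with means of 554 FPKM for Calr, 442 for Pdia3 and 289 for Hspa5. The signs of this list were singled out after its values were seen. In the pooled menthol comparison, 0 of 14 tested had a positive and 14 a negative log2 fold change. Their median was -0.023, beside -0.001 for all tested genes. With libraries centred on their median, the signs were the same and the median was -0.031. This was the most one-sided split with menthol among the lists with more than 1 tested gene. The share of negative signs over all tested genes is not given here. For menthol against control alone the split was 6 positive to 8 negative, and for menthol added to Wnt3a it was 1 to 13. In the pooled Wnt3a comparison 12 were positive and 2 negative, with a median of 0.030 beside 0.003. None of the 14 passed the adjusted p in limma or in limma voom in either comparison, and an unadjusted p under 0.05 was found for 1 of 14 with menthol (15.5% of all tested genes) and 2 of 14 with Wnt3a (14.2%). The 10 tested genes of mitochondrial calcium uptake split 3 positive to 7 negative with menthol and 6 to 4 with Wnt3a.

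**Figure D5:**
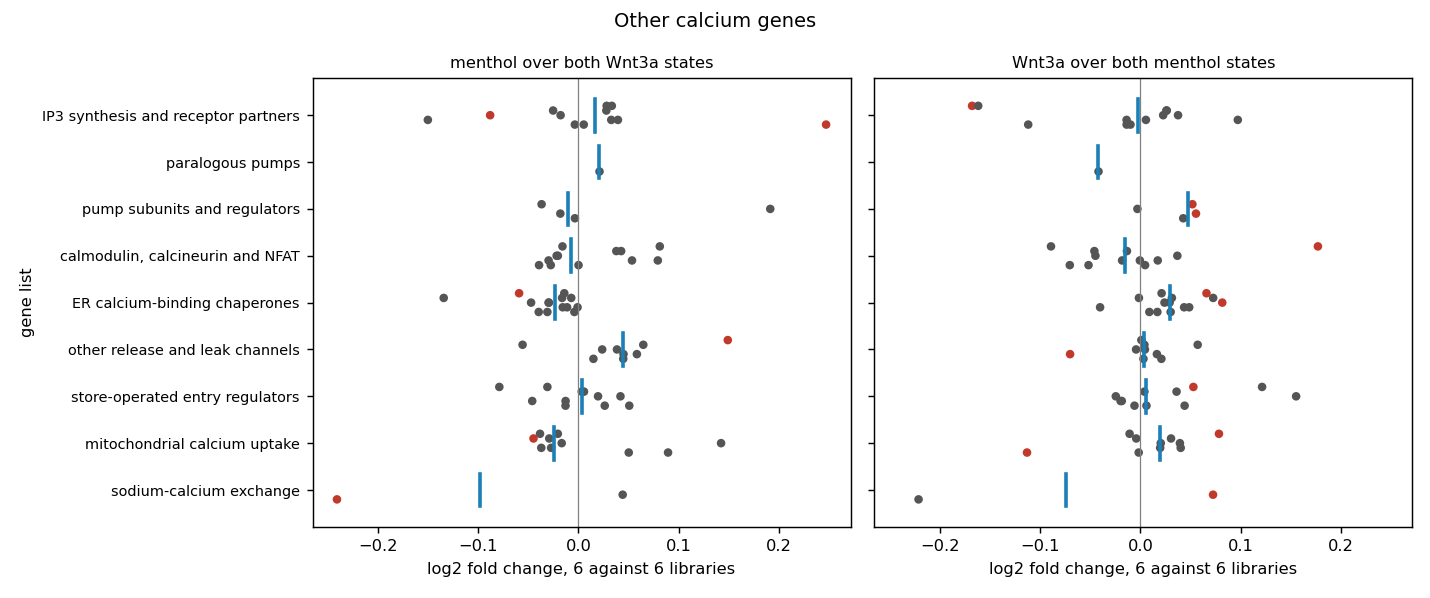
Log2 fold change of the 75 other calcium genes by list in the 2 pooled comparisons (6 against 6 libraries), 1 point per gene, red where the unadjusted p was under 0.05, with the median of each list as a blue bar. Nearly all points lie within 0.2 of 0, and the chaperones lie left of 0 with menthol and mostly right of 0 with Wnt3a.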

How the data were processed

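RNA of 12 ND7/23 libraries in 4 groups of 3 was analysed, with groups and replicate numbers from the sample labels. By the study's methods, RNA was extracted with TRIzol, libraries were made with the VAHTS Universal V6 kit, and reads were filtered with fastp, aligned with HISAT and counted per gene with HTSeq. The authors deposited FPKM values for 21556 genes in 1 column per library. The submitters' processing notes name the build mRatBN7.2; tool versions for these steps are not given in the sources used here. Gene coordinates of that build are not given, and promoter sequences are those of RefSeq for GRCr8. FPKM is relative, so a change of abundant genes shifts all others.

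Whole read counts were recovered from the FPKM steps for 21556 of 21556 genes (largest relative distance from a whole number 3.4e-13; 1804 genes were above 0 in a single library, which leaves no other value to check). Libraries held 36914722 to 38837023 reads, and 3 reads on 1 kb correspond to 0.0772 to 0.0813 FPKM. Such figures cover counting error only. The chi-square per degree of freedom of the 12 replicate pairs within groups was 3.63 to 8.4, so no library was a copy of another of its group.

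The test was that of limma (3.58.1, under R 4.3.3) for log2(FPKM + 0.1) with a variance trend, a mean FPKM of at least 0.5 over all libraries, 4 groups in 1 fit and Benjamini-Hochberg adjustment over 11451 genes. Every fold change is one of FPKM + 0.1. A gene passed at an adjusted p under 0.05. The model was tested on simulated data. Since the deposited unit is FPKM, limma on the log scale took the place of the study's count model, and the recovered reads were used for an alternative. Alternatives were pseudocounts of 0.01 and 1, a mean FPKM of at least 1, no minimum, median centring, fits of only the groups compared, a replicate block, each library left out, limma voom on the recovered reads and an added 2-fold threshold.

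The 10 genes are all reported, the other pumps by level, and of the other calcium genes those past the adjusted p (none) and the 2 with the largest differences in each pooled comparison. Letm1 and the sign counts of the chaperones and of mitochondrial calcium uptake are outside this rule. Members and gene lists were chosen with earlier results of these data known.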

Additional observations from a re-analysis of the deposited data

How the results depend on the processing

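No member passed the adjusted p in any of the 9 tests, and 177 of 184 counts under the alternatives were also 0. limma voom on the recovered reads passed 1 member with Wnt3a against control (Atp2a2), 1 with menthol added to Wnt3a (Itpr1), 1 in the pooled menthol comparison (Itpr1), 1 in the pooled Wnt3a comparison (Atp2a2) and 2 over the 4 groups. Without 1 library, the counts ranged from 0 to 1 with Wnt3a against control and in the pooled Wnt3a comparison, where Atp2a2 passed without Wnt3a replicate 3 (adjusted p = 0.0386 and 0.0424 in limma), and were 0 in the other 7 tests. No count had a member past 2-fold. Of the 75 other calcium genes, with Wnt3a against control 1 passed with a pseudocount of 1, 1 with a mean FPKM of at least 1 and 1 with median centring (Letm1 each time, adjusted p = 0.0496, 0.0461 and 0.0491 in limma), 2 in limma voom (Letm1 and Itprip), and 0 to 1 without 1 library. limma voom passed 1 in each of the pooled comparisons, Itpripl2 for menthol and Itprip for Wnt3a. The cause of these changes was not tested. Of the 80 fold changes of the 10 members in 8 comparisons, 25 changed sign under at least 1 alternative, all of them at most 0.06 in size (log2) and with an unadjusted p of 0.445 or more. Of 21 followed one by one, which include those printed with an SE or interval, the values under the alternatives kept their direction and their side of the threshold in 401 of 408 cases and passed it in 6. The sign change among these 21 was that of Orai1 in the pooled Wnt3a comparison, which ranged from -0.01 (without menthol with Wnt3a replicate 3) to 0.02 over the fits without 1 library.

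Same-numbered libraries did not deviate together (r from -0.055 to 0.153 over 18 pairs, 1 of them over 0.1). With the replicate block 0 members and 0 of the other calcium genes passed in each test, as without it. By reads rather than FPKM, the control shares were 47.6% for Stim1, 52.4% for Stim2, 66.4% for Orai1, 8.64% for Orai2, 9.97% for Itpr1, 2.68% for Itpr2 and 87.3% for Itpr3. With 247 to 317 reads for Itpr2 and 263 to 401 for Orai2 per library, counting alone gives a coefficient of variation of 6.03% and 5.59%, which limits what could be seen for these genes.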
